A study of Mus musculus with 6 samples.

Results

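The constitutive proteasome genes were followed in mouse liver after knockdown of Hnf1aos1, a long non-coding RNA. Members were the genes of the count table whose symbols begin with Psma, Psmb, Psmc, Psmd, Psme, Psmf or Psmg followed by a number, leaving out the 3 interferon-inducible catalytic subunits Psmb8, Psmb9 and Psmb10. This gave 46 of the 40803 genes: 16 of the 20S core (8 Psma and 8 Psmb), 20 of the 19S cap (6 Psmc and 14 Psmd), 5 activators (Psme), 1 inhibitor (Psmf1) and 4 assembly chaperones (Psmg). RNA-seq libraries came from 6 male C57BL/6J mice, normally fed and about 6 weeks old at injection, whose livers were taken 4 weeks later. In the scramble group (rAAV8-Scramble, n = 3) the tail vein was injected with an adeno-associated virus carrying a hairpin with no mouse target. In the knockdown group (rAAV8-Hnf1aos1, n = 3) the same vector carried a hairpin against Hnf1aos1. In both groups the U6 promoter, which is active in every cell type, drove the hairpin, and the vector also carried EGFP. Each library was 1 mouse, no uninjected mice were analysed here, and every p-value below measures the spread between 3 and 3 mice.

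The 26S proteasome degrades proteins tagged with ubiquitin. Its barrel, the 20S core, is built of outer rings of alpha subunits (Psma genes), which gate the entrance, and inner rings of beta subunits (Psmb genes), of which Psmb5, Psmb6 and Psmb7 carry the chymotrypsin-like, caspase-like and trypsin-like active sites. The 19S cap recognises the ubiquitin tag, removes it and, with its ring of ATPases (Psmc genes), unfolds the protein and threads it into the core, while the Psme proteins cap the core in other ways and the Psmg proteins help to build it. The subunits are made in fixed proportions and their genes are known to be transcribed together, in hepatocytes as in other cells.

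Gene counts per library ran from 14704746 to 16532510 in the scramble group and from 18021614 to 19462398 in the knockdown group, and the ERCC spike-in RNAs took 1.38% to 1.52% and 1.18% to 1.24% of the counts. Hnf1aos1 was measured at 512, 491 and 620 normalized counts (raw counts divided by library size with edgeR's TMM factors) in the scramble libraries of replicates 1, 2 and 3 and at 279, 259 and 433 in the knockdown libraries. All 3 knockdown libraries lay below all 3 scramble libraries, with knockdown replicate 3 nearest to them. The log2 fold change of knockdown over scramble was -0.74 ± 0.20 (SE), with an adjusted p of 0.0625 by edgeR's quasi-likelihood test and of 0.00294 by DESeq2. Hepatocyte markers had the same summed level in both groups within their spread, at 76510 to 81280 TPM against 70180 to 85790 TPM. Most of this sum was Alb (mean of 56790 TPM over all libraries), so it says little about the other markers, of which Tat fell (given below). TPM is the level scaled by transcript length and library total, as computed by the study's authors.

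Most subunits of the core and the cap had slightly more RNA in the knockdown livers. Of the 46 members, 45 had enough counts to be tested. The 45 had a median log2 fold change of 0.22, or 16.7% more RNA, against -0.0004 for all 16327 genes tested, and 42 of them lay above 0, against 49.9% of all genes. Taken singly, 2 members rose at an adjusted p under 0.05 (Psma4 and Psmb4, 4.44% of the 45) and none fell. By the same edgeR test 3.09% of all genes rose, 3.23% fell and 6.32% did either. At an unadjusted p under 0.05, 23 of 45 members (51.1%) were higher and 0 lower, against 12.0% higher, 11.4% lower and 23.4% either way of all genes. DESeq2 placed 10 members under the same unadjusted limit, where 9.37% of all genes were higher, and called 2 at an adjusted p under 0.05, Psmb4 and Psmd2, where it called 3.88% of all genes higher. Without the filter on low counts edgeR called 5 members, against 3.16% of all genes, and with the spike-in scaling 34, against 18.6%. It called 0 with library totals, and when 1 library was left out it called 0 in 4 of the 6 fits, 1 without scramble replicate 2 and 4 without knockdown replicate 3. The share of all genes called in these fits is not given here, so these counts cannot be set against it.

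**Figure D1:**
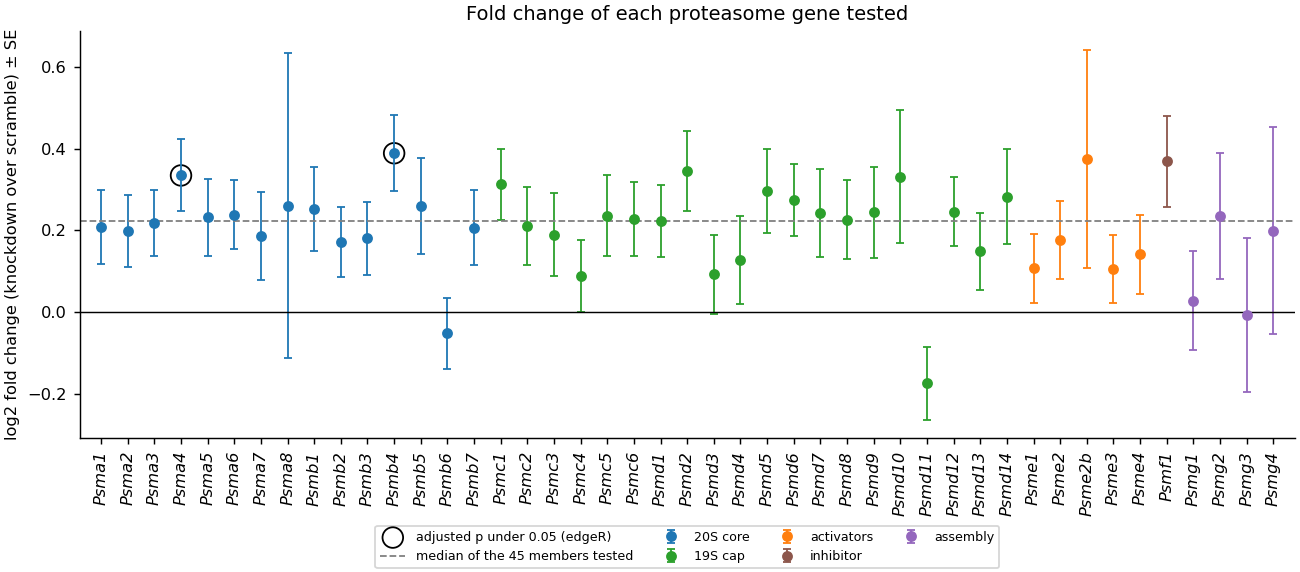
Log2 fold change of knockdown over scramble (y axis, edgeR, bars ± SE) for each of the 45 members tested, coloured by place in the complex; circles mark the 2 genes with an adjusted p under 0.05 and the dashed line is the median, 0.22. Psmb6, Psmd11 and Psmg3 lie below 0, and the low-count genes Psma8 and Psme2b have the widest bars. When libraries are scaled by the spike-ins these 3 lie above 0 but under the median of all genes, 0.201.

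The members lay close together. The quartiles of their log2 fold changes were 0.17 and 0.26, an interquartile range of 0.09 that was under the median SE of a single member (0.10). Over all genes the quartiles were -0.23 and 0.19 and the median SE was 0.16. Genes with a smaller SE lie closer together and separate more easily, and the shares of all genes given here and above were not matched for it. Between 0.1 and 0.4 lay 39 of 45 members, against 25.8% of all genes. In 25 of the 45 (55.6%) every knockdown library was above every scramble library, which held for 15.2% of all genes, and in 1 (Psmd11) every knockdown library was below, against 13.7% of all genes.

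Library by library, the median member stood at -0.02, 0.08 and -0.06 on the log2 scale relative to the scramble mean in scramble replicates 1, 2 and 3, and at 0.19, 0.25 and 0.17 in the knockdown replicates. The groups did not overlap, and the gap between scramble replicate 2 and knockdown replicate 3 was smaller than the spread within the scramble group. Scramble replicate 2 was the highest of its group in 29 of 45 members and scramble replicate 3 the lowest in 26, while knockdown replicate 2 was the highest of its group in 26. The members' share of all gene counts was 0.220%, 0.235% and 0.224% in the scramble libraries and 0.249%, 0.249% and 0.240% in the knockdown libraries. Scaling by the spike-ins moved the median of all genes to 0.20 and that of the members to 0.42, and scaling by library totals moved them to -0.07 and 0.15. The members stood 0.22 above all genes under each of the 3 scalings. A scaling moves all genes by nearly the same amount, so this difference could hardly have changed and is no separate evidence.

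**Figure D2:**
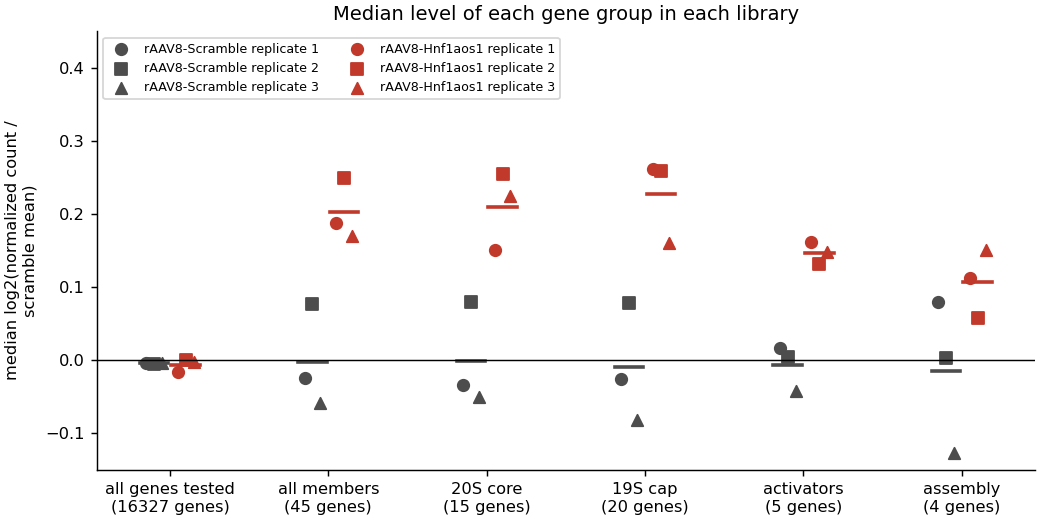
Median over each gene group of log2(normalized count over the scramble mean) in each library (y axis; markers are replicates 1 to 3, short lines are group means), for all genes tested and for the members by place in the complex. The 3 knockdown libraries sit between 0.17 and 0.25 for all members and the 3 scramble libraries between -0.06 and 0.08, while for the 4 assembly genes the ranges overlap.

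In the 20S core, the 7 alpha subunits Psma1 to Psma7 all lay above 0, with log2 fold changes from 0.19 (Psma7) to 0.33 (Psma4) and a median of 0.22. Their summed level was 497, 519 and 524 TPM in the scramble libraries and 580, 576 and 559 TPM in the knockdown libraries. The groups did not overlap, and the knockdown mean was 11.4% higher. Of the 7 beta subunits Psmb1 to Psmb7, 6 lay above 0, with a median of 0.21, and their summed level was 796, 887 and 814 TPM against 918, 930 and 902 TPM, with scramble replicate 2 close to the knockdown libraries. Together the core genes summed to 1346 ± 56.8 TPM (SD, n = 3) in scramble and 1489 ± 24.2 TPM (n = 3) in knockdown livers, a difference of 10.6%.

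Psmb4, a beta subunit without an active site, showed the highest fold change of the core. It was counted at 949, 1067 and 899 normalized counts in the scramble libraries and at 1245, 1331 and 1238 in the knockdown libraries. Each knockdown library was above the highest scramble library, replicate 2, by more than the range within the knockdown group. It rose by a log2 fold change of 0.39 ± 0.09 (SE), or 30.9%, with an adjusted p of 0.0339 by edgeR and of 0.0243 by DESeq2. The edgeR call was lost with library totals (adjusted p = 0.0526) and without scramble replicate 1 (0.0928), scramble replicate 3 (0.173), knockdown replicate 1 (0.0555) or knockdown replicate 2 (0.122).

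Psma4, an alpha subunit, was counted at 764, 705 and 717 normalized counts in the scramble libraries and at 865, 972 and 919 in the knockdown libraries. The groups did not overlap, and knockdown replicate 1 was the nearest to the scramble group. It rose by a log2 fold change of 0.33 ± 0.09 (SE), or 26.1%, with an adjusted p of 0.0462 by edgeR, close to the limit. The call was lost by DESeq2 (adjusted p = 0.0711), with library totals (0.0915) and when any 1 of the 6 libraries was left out (0.0505 to 0.192). Psma4 shares 114 exonic bases with AY074887, a gene on the opposite strand, and the strand setting of the counting is not given in the sources used here.

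Psmb6, the caspase-like active subunit, was the lowest of the core. It had 663, 718 and 655 normalized counts in scramble livers and 635, 663 and 666 in knockdown livers. The groups overlapped on this scale, and the log2 fold change was -0.05 ± 0.09 (SE; edgeR adjusted p = 0.765). It was 0.15 with the spike-in scaling, where the median of all genes was 0.20, and -0.12 with library totals, where that median was -0.07. In TPM, Psmb6 stood at 76.1, 81.5 and 78.6 in the scramble libraries. The knockdown libraries were all lower, at 72.6, 71.3 and 72.2 TPM. The other catalytic subunits had log2 fold changes of 0.26 ± 0.12 (Psmb5, edgeR adjusted p = 0.211) and 0.21 ± 0.09 (Psmb7, edgeR adjusted p = 0.203), and whether Psmb6 differed from them was not tested. A pair of core genes belongs to other tissues. Psma8, the alpha subunit of the testis, had 9 to 19 normalized counts in every library and a log2 fold change of 0.26 ± 0.37 (SE). Psmb11, the beta subunit of the thymus, had 2 counts in scramble replicate 1 and none in the other 5 libraries and was not tested.

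The stretches before the start sites of the 2 core genes that rose, Psma4 and Psmb4, and of the genes with the lowest fold change of the core (Psmb6) and of the cap (Psmd11) are shown to set the extremes beside each other. Sequences are from RefSeq on GRCm38.p6, 5′ to 3′ on the gene's own strand, and end before the start of both the RefSeq and the GENCODE M21 gene. Capitals mark the GC box GGGCGG, known to bind Sp factors, and the core TGACNNNGC of the antioxidant response element, known to bind Nfe2l1 and Nfe2l2, on either strand.
Psma4, chr9:54950609-54950789, plus strand: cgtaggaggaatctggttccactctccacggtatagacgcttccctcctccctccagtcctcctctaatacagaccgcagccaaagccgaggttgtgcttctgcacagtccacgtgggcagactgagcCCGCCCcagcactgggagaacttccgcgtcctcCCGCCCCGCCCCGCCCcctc
Psmb4, chr3:94886962-94887208, minus strand: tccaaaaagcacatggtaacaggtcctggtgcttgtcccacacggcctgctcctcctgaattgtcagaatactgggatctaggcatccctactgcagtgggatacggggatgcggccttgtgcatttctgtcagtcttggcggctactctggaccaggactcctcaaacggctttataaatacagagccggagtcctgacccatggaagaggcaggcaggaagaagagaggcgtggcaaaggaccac
Psmb6, chr11:70525107-70525356, plus strand: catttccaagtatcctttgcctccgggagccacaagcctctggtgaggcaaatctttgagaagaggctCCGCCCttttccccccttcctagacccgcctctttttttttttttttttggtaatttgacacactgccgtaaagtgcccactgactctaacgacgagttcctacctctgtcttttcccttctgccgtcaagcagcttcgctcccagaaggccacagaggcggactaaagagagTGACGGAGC
Psmd11, chr11:80428365-80428614, plus strand: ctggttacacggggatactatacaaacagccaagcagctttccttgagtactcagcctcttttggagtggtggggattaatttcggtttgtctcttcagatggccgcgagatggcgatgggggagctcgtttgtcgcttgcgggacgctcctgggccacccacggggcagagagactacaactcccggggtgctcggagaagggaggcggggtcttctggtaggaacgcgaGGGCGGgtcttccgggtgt

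Psma4 carried 4 GC boxes, of which 3 follow each other and share a base where they meet, Psmb6 carried 1 GC box and 1 antioxidant response core, Psmd11 carried 1 GC box and Psmb4 carried neither motif. Over windows from 250 bases before to 50 after the start, 38 of 46 members had an entry. The GC box was found in 57.9% of these members and in 38.2% of all 27025 genes with a window, with 76.5% of 17 cap genes and 41.7% of 12 core genes. The antioxidant response core was found in 15.8% of members and 14.0% of all genes, and CCAAT, the box of the factor NF-Y, in 34.2% and 41.1%. The core of the interferon-stimulated response element, GAAA followed after 2 further bases by GAAA, was found in 5 members (13.2%: Psmb3, Psmd4, Psmd9, Psme1 and Psmg4) and in 3.99% of all genes. Each motif was searched on both strands, the letters of different motifs may overlap, and a match is only a match of letters.

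In the 19S cap, all 6 ATPases Psmc1 to Psmc6 lay above 0, with log2 fold changes from 0.09 (Psmc4) to 0.31 (Psmc1) and a median of 0.22. Of the 14 Psmd genes 13 lay above 0, with a median of 0.24. None of the 20 cap genes passed an adjusted p under 0.05 by edgeR, against 6.32% of all genes in either direction. By DESeq2 1 was called higher (Psmd2), against 3.88% of all genes. At an unadjusted p under 0.05, 12 cap genes were higher by edgeR, against 12.0% of all genes, and 6 by DESeq2, against 9.37%. Every knockdown library was above every scramble library in 11 of the 20, against 15.2% of all genes. The summed level of the cap was 1225, 1300 and 1250 TPM in the scramble libraries and 1418, 1391 and 1296 TPM in the knockdown libraries. Knockdown replicate 3 fell just under scramble replicate 2, so these sums overlapped, and the means differed by 8.73%.

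Psmd2, the large scaffold subunit onto which shuttle proteins dock, was the highest of the cap. It was counted at 2024, 2291 and 1872 normalized counts in the scramble libraries and at 2585, 2758 and 2515 in the knockdown libraries, with no overlap. Its log2 fold change was 0.34 ± 0.10 (SE), with an adjusted p of 0.0607 by edgeR and of 0.0487 by DESeq2. Psmc1, an ATPase chosen after its values were seen, had 1113, 1201 and 1120 normalized counts against 1372, 1523 and 1369, a log2 fold change of 0.31 ± 0.09 (SE) and an edgeR adjusted p of 0.0574. Both fell under an adjusted p of 0.05 without knockdown replicate 3 (edgeR adjusted p of 0.0431 for Psmd2 and 0.0427 for Psmc1). Neither was called when another library was left out, and the edgeR adjusted p reached 0.258 for Psmd2 and 0.223 for Psmc1.

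Psmd11, a lid subunit that clamps the cap to the core, went the other way. It had 2369, 2644 and 2470 normalized counts in the scramble libraries and 2121, 2340 and 2174 in the knockdown libraries. All 3 knockdown libraries were below all 3 scramble libraries, knockdown replicate 2 only just. The log2 fold change of -0.17 ± 0.09 (SE) had an edgeR adjusted p of 0.264. It was 0.03 with the spike-in scaling, where the median of all genes was 0.20, and -0.25 with library totals, where that median was -0.07.

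Psmd14, the metalloprotease that cuts ubiquitin chains off the substrate, had 514, 598 and 480 normalized counts in the scramble libraries against 731, 623 and 582 in the knockdown libraries. The groups overlapped through knockdown replicate 3, and the log2 fold change was 0.28 ± 0.12 (SE; edgeR adjusted p = 0.170). Psmd8, a lid subunit, had 1093, 1307 and 1087 normalized counts against 1324, 1407 and 1347. Its groups did not overlap, with scramble replicate 2 close to the knockdown libraries, and its log2 fold change was 0.23 ± 0.10 (SE; edgeR adjusted p = 0.182). Psmd5, Psmd9 and Psmd10 carry the Psmd name but are known as chaperones that help to assemble the ATPase ring and leave the finished cap. Their log2 fold changes were 0.30 ± 0.10, 0.24 ± 0.11 and 0.33 ± 0.16 (SE), and no adjusted p was under 0.05. Psmd9 shares 1849 exonic bases with Gm26745 on the opposite strand, the longest such overlap among the 9 members that have one.

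**Figure D3:**
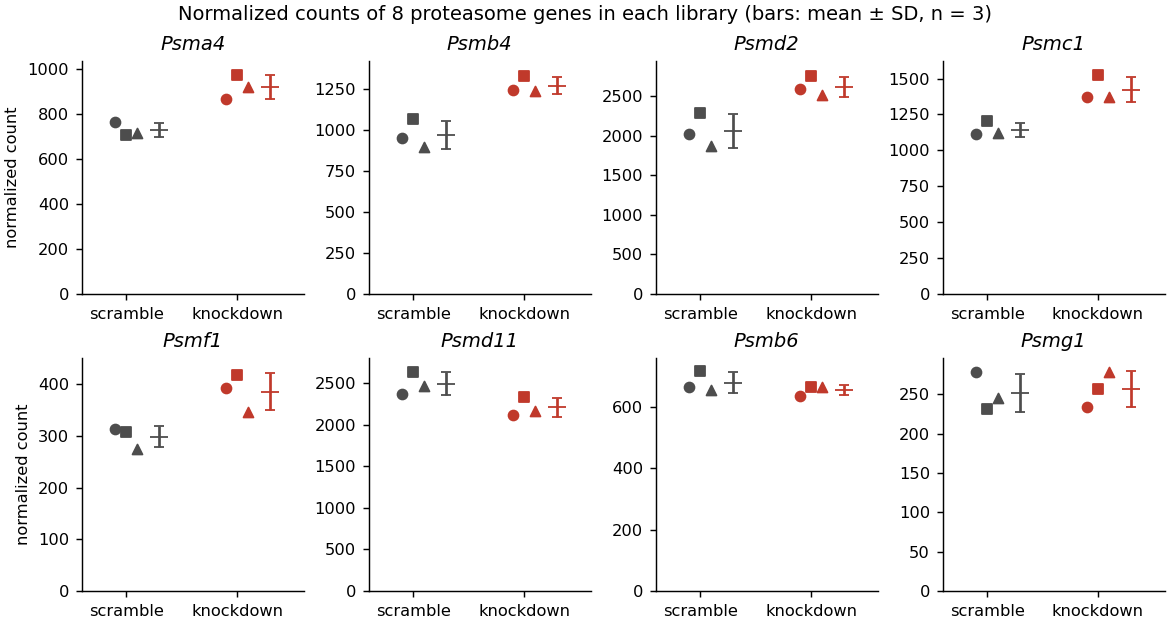
Normalized counts (y axes from 0) of 8 members in each scramble (grey) and knockdown (red) library; markers are replicates 1 to 3 and bars the mean ± SD, n = 3. The groups do not overlap for Psma4, Psmb4, Psmd2, Psmc1 and Psmf1 (knockdown higher) or for Psmd11 (knockdown lower), and overlap for Psmb6 and Psmg1. With spike-in scaling the log2 fold change of Psmd11 is 0.03, where the median of all genes is 0.20.

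The activators had a median log2 fold change of 0.14, under those of the core (0.22) and the cap (0.23). None of the 5 had an edgeR p under 0.05 even unadjusted, against 23.4% of all genes in either direction. In 3 of the 5 every knockdown library was above every scramble library, against 15.2% of all genes. Whether the activators differed from the core and the cap was not tested. Psme1 and Psme2 together form the PA28 ring, which is known to be induced by interferon. Psme1 had 922, 854 and 894 normalized counts in the scramble libraries and 925, 959 and 993 in the knockdown libraries, and Psme2 had 507, 541 and 571 against 628, 641 and 560. Psme1 just failed to overlap, while Psme2 overlapped through knockdown replicate 3. Their log2 fold changes were 0.11 ± 0.08 and 0.18 ± 0.10 (SE), with edgeR adjusted p-values of 0.472 and 0.294. The genes lie beside each other on chromosome 14 in GENCODE M21 on GRCm38, Psme1 on the plus strand at chr14:55578123-55581529 and Psme2 on the minus strand at chr14:55587441-55591113.

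Psme3, which forms the nuclear PA28 ring, had 1083, 1090 and 1040 normalized counts against 1198, 1161 and 1100. Psme4, the large single-chain activator PA200, had 3808, 4108 and 3394 against 4173, 4130 and 4177. Neither gene's groups overlapped although scramble replicate 2 came close to the knockdown libraries for Psme4, and the log2 fold changes were 0.11 ± 0.08 and 0.14 ± 0.10 (SE; edgeR adjusted p = 0.471 and 0.403). Psme2b had 48.2, 27.4 and 30.8 normalized counts against 43.9, 50.4 and 44.4, which overlap, and a log2 fold change of 0.37 ± 0.27 (SE; edgeR adjusted p = 0.429). Its transcript is 99.4% identical to that of Psme2 over 94.9% of its length. By the methods only uniquely mapped reads were counted, so reads that fit both genes may be missing from both counts. The values of Psme2b and of Psme2 are uncertain for this reason.

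Psmf1 encodes PI31, first known as an inhibitor of the core. It was counted at 313, 307 and 275 normalized counts in the scramble libraries and at 393, 417 and 347 in the knockdown libraries. The groups did not overlap, with knockdown replicate 3 the nearest to the scramble group. The log2 fold change was 0.37 ± 0.11 (SE), with an edgeR adjusted p of 0.0723, and without knockdown replicate 3 it was 0.44 with an edgeR adjusted p of 0.0289. Psmf1 was not called when another library was left out, and its edgeR adjusted p reached 0.279.

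The assembly chaperones Psmg1 to Psmg4, which pair up to hold the alpha ring while the core is built, had no member whose groups were separate. Of all genes, 15.2% had every knockdown library above every scramble library and 13.7% had every knockdown library below. With so few assembly genes, finding none separate does not set them apart from all genes, and a difference was not tested. Psmg1 had 278, 232 and 245 normalized counts against 234, 258 and 279, a log2 fold change of 0.03 ± 0.12 (SE). With library totals its log2 fold change was -0.04, where the median of all genes was -0.07. Psmg2 had 149, 155 and 122 against 194, 150 and 158, a log2 fold change of 0.24 ± 0.15 (SE). In both genes the groups overlapped.

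Psmg3 had 78.0, 64.8 and 77.0 normalized counts against 75.3, 63.7 and 79.7, a log2 fold change of -0.01 ± 0.19 (SE). With the spike-in scaling its log2 fold change was 0.198, where the median of all genes was 0.201. Psmg4 had 32.8, 47.2 and 30.8 against 42.0, 39.9 and 45.3, a log2 fold change of 0.20 ± 0.25 (SE). These genes overlapped as well, and no edgeR adjusted p of the 4 was under 0.383. Psmg3 and Psmg4 had under 100 normalized counts in every library and an SE near or above the median change of the core, so a difference of the size seen in the core was not detectable for them at this depth.

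Per transcript length, the core genes other than Psma8 and Psmb11 were expressed at levels close to each other. The alpha subunits Psma1 to Psma7 spanned 55.6 TPM (Psma3) to 117 TPM (Psma1) as means over all 6 libraries, a 2.1-fold range, and the beta subunits Psmb1 to Psmb7 spanned 73.2 TPM (Psmb5) to 183 TPM (Psmb7), a 2.5-fold range. The ATPases spanned 61.5 TPM (Psmc6) to 108 TPM (Psmc1). The Psmd genes spread more widely, from 10.2 TPM (Psmd10) to 106 TPM (Psmd8), where Psmd10 and Psmd9 of the chaperones were the lowest. Among the activators Psme1 stood at 120 TPM and Psme2b at 4.84 TPM. The assembly chaperones were low, from 9.06 TPM (Psmg4) to 30.9 TPM (Psmg1), with a summed level of 67.9, 63.4 and 63.3 TPM in the scramble and 68.2, 60.9 and 68.0 TPM in the knockdown libraries.

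**Figure D4:**
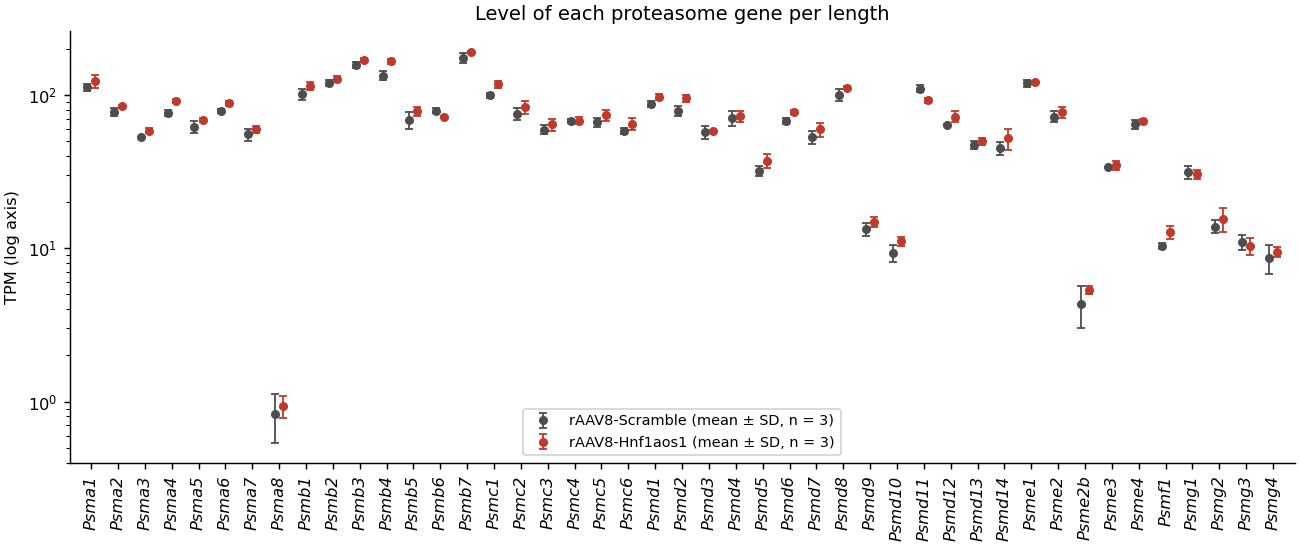
Level of each member in TPM (log axis, mean ± SD over 3 libraries) in scramble (grey) and knockdown (red) livers, in the order core, cap, activators, inhibitor, assembly; Psmb11 is left out because it was listed at 0 in every knockdown library. Core and ATPase genes other than Psma8 have group means from 52.9 TPM (Psma3) to 191 TPM (Psmb7), and the chaperones Psmd9, Psmd10 and Psmg1 to Psmg4 lie lower.

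The interferon-inducible catalytic subunits, which replace their constitutive partners in the immunoproteasome, all rose. Psmb8, Psmb9 and Psmb10 had log2 fold changes of 0.96 ± 0.17, 0.93 ± 0.15 and 0.60 ± 0.10 (SE), with edgeR adjusted p-values of 0.0105, 0.00682 and 0.0103. Without scramble replicate 3 the calls of Psmb8 (edgeR adjusted p = 0.0652) and Psmb10 (0.0566) were lost. Psmb8 stood at 16.4%, 10.4% and 17.2% of the TPM level of its partner Psmb5 in the scramble libraries and at 27.7%, 21.8% and 20.5% in the knockdown libraries. Psmb9 stood at 19.1%, 15.4% and 24.4% of Psmb6 against 41.7%, 38.8% and 35.1%, and Psmb10 at 14.5%, 12.5% and 15.8% of Psmb7 against 19.3%, 18.8% and 17.8%. In all 3 pairs the knockdown libraries lay above the scramble libraries, and the ratios were 1.62-fold, 1.99-fold and 1.31-fold higher. Each had an exact two-sided permutation p of 0.1 (0.1 adjusted over the 3 pairs), the smallest that 3 against 3 libraries can give. These ratios do not depend on the scaling of the libraries. The partner Psmb6 was itself lower in TPM in every knockdown library, so its ratio holds both differences. In normalized counts the groups of Psmb6 overlapped, with a log2 fold change of -0.05 ± 0.09 (SE). Psmb8 and Psmb9 have annotated exonic bases in common with genes on the opposite strand (498 bases with Gm20496 and 212 bases with Tap1).

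**Figure D5:**
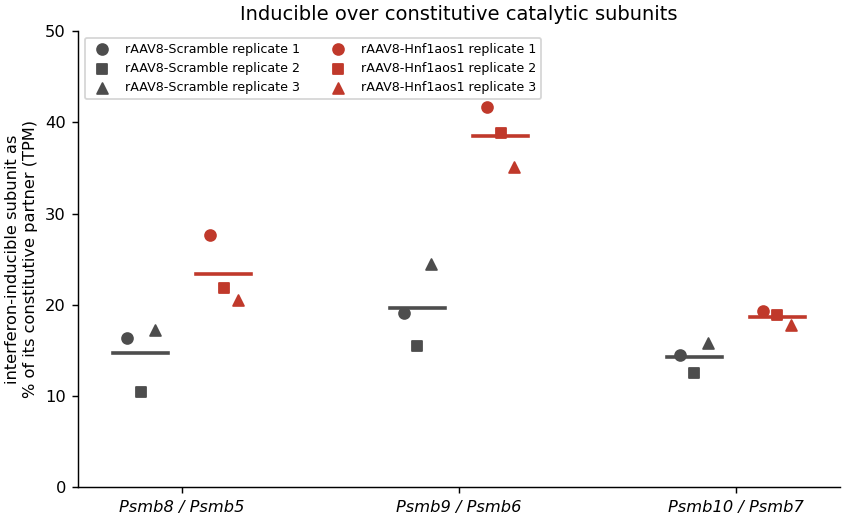
TPM of each interferon-inducible catalytic subunit as a percentage of its constitutive partner (y axis from 0) in each scramble (grey) and knockdown (red) library; markers are replicates 1 to 3 and lines the group means. Every knockdown library lies above every scramble library, by the widest margin for Psmb9 over Psmb6 (35.1% to 41.7% against 15.4% to 24.4%).

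Of 38 other genes of the pathway, 37 were tested, 28 of them lay above 0, against 49.9% of all genes, and the median log2 fold change was 0.12. The edgeR calls among them were the 3 inducible subunits, which rose, and Nfe2l2, which fell, where 3.09% of all genes rose and 3.23% fell. Nfe2l2, the oxidative stress factor that can drive proteasome genes, had 2170, 1921 and 2047 normalized counts in the scramble libraries and 1477, 1486 and 1408 in the knockdown libraries. The groups lay far apart, with a log2 fold change of -0.49 ± 0.09 (SE; edgeR adjusted p = 0.0107, and 0.0736 without scramble replicate 3, which ended the call). Nfe2l1, the main factor that restores proteasome genes when the proteasome is blocked, overlapped between the groups and had a log2 fold change of -0.19 ± 0.10 (SE; edgeR adjusted p = 0.278). The 7 transcription factors and their activating enzymes had a median of 0.01, the 11 assembly and associated factors tested 0.04, the 10 shuttle and extraction factors 0.13, and the 6 genes for ubiquitin and its activating enzymes 0.17.

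Of the associated factors, Pomp, which helps the beta ring to mature, had a log2 fold change of 0.23 ± 0.09 and Adrm1, a ubiquitin receptor of the cap, one of 0.23 ± 0.09 (SE; edgeR adjusted p = 0.141 and 0.169). In both genes every knockdown library was above every scramble library. The deubiquitinases Usp14 and Uchl5, which bind the cap, had values of 0.15 ± 0.09 and -0.02 ± 0.14 (SE), and both overlapped. The genes of these lists did not all lie above 0, as the following 3, chosen after their values were seen, show. Zfand5, a factor that binds the proteasome, had a log2 fold change of -0.30 ± 0.09 (SE; edgeR adjusted p = 0.0698, and 0.0332 with library totals). Ubqln4, a shuttle factor, had one of -0.32 ± 0.09 (SE; edgeR adjusted p = 0.0583, and 0.0325 with library totals), and in both genes every knockdown library was below every scramble library. Sem1, a small subunit of the cap without a Psm symbol, overlapped at -0.22 ± 0.14 (SE; edgeR adjusted p = 0.369).

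Markers of some other liver cells differed between the groups as well. In bulk samples a change in the number of cells of a type and a change in RNA per cell cannot be told apart. All 8 macrophage markers lay above 0, against 49.9% of all genes, with a median log2 fold change of 0.45. Their summed level was 208 to 255 TPM in scramble and 264 to 325 TPM in knockdown livers. By edgeR 3 of the 8 rose (Adgre1, Clec4f and Lyz2), against 3.09% of all genes. Of these calls, DESeq2 kept Clec4f and Lyz2 but not Adgre1 (adjusted p = 0.0749) and added Marco and Cd5l, library totals kept Lyz2 only, and leaving out 1 library lost Adgre1 in 5 of 6 fits, Clec4f in 4 and Lyz2 in 3. Neutrophil markers summed to 1.01 to 1.62 TPM against 3.03 to 7.53 TPM, with Ly6g and Mpo at 0 in every library. None of the 8 had enough counts to be tested, and the sums rest on few reads. S100a9 had 2, 1 and 0 raw counts in the scramble libraries against 12, 9 and 6, and Camp had 1, 1 and 1 against 0, 2 and 1. T and NK cell markers (7.15 to 12.6 against 7.72 to 11.6 TPM), B cell markers (21.8 to 41.3 against 26.0 to 51.1 TPM) and stellate cell markers (164 to 218 against 134 to 179 TPM) overlapped, and so did endothelial markers (142 to 149 against 120 to 144 TPM). Above 0 lay 4 of the 5 T and NK cell markers tested (median log2 fold change 0.13) and 6 of 7 B cell markers (0.30). Of the stellate markers 1 of 8 did (-0.23) and of the endothelial markers 1 of 8 (-0.04). None of these was called by edgeR. Cholangiocyte markers summed to 34.1 to 39.7 against 47.6 to 184 TPM, the highest value being knockdown replicate 1. Among them Spp1 ran from 21.7 to 24.8 TPM in scramble and from 31.0 to 167 TPM in knockdown livers, Krt19 and Tspan8 had log2 fold changes of -1.03 ± 0.65 and -0.53 ± 0.39 (SE), and none was called by edgeR. The part of these cells in the members' difference was not tested. Of the 8 hepatocyte markers, 4 lay above 0 and Tat fell, where 3.23% of all genes fell, a call lost without scramble replicate 3 (edgeR adjusted p = 0.0523).

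By position, the 46 members lie on 16 chromosomes in GENCODE M21 on GRCm38 and all are annotated as protein coding. The core gene with the highest fold change, Psmb4, lies at chr3:94884093-94886961 on the minus strand and Psma4 at chr9:54950790-54958030 on the plus strand. Psmb6 (chr11:70525367-70527858) and Psmd11 (chr11:80428615-80473248), the lowest of the core and of the cap, both lie on the plus strand of chromosome 11, which holds 9 members. With the spike-in scaling both lay above 0 but under the median of all genes, as given above. Exonic bases shared with another gene were found for 4 members on the same strand and for 9 on the opposite strand.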

How the data were processed

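Poly(A) RNA-seq libraries (per the methods; the labels describe rRNA depletion) were trimmed with Trimmomatic, aligned with STAR and counted with featureCounts over uniquely mapped exonic reads by the authors, on GRCm38 by the methods and GRCm39 by the labels. The deposited raw counts of 40895 features (92 of them spike-ins) were tested, and the authors' deposited TPM values gave levels and ratios. The authors' normalized counts, fold changes and p-values were not used. Groups and replicate numbers came from the sample labels.

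Genes passing filterByExpr (16327) were fitted with edgeR 4.0.16 in R 4.3.3 (quasi-likelihood, robust, TMM factors over gene rows without spike-ins, 3 against 3 libraries, no covariates), with Benjamini-Hochberg adjustment over all genes tested; a call was an adjusted p under 0.05. The common biological coefficient of variation was 13.9%. Scripts were tested on simulated data. Ratios were compared by exact permutation (scipy 1.17.1). Alternatives were DESeq2 1.42.0, its size factors in edgeR, library totals, spike-in library sizes, no filter, the replicate number as a block, leaving out each library, a log2 fold change limit of 1 and, for ratios, raw counts or 1 added to each TPM.

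Per-library values were given for called members, the highest and lowest fold change of each group, all Psme, Psmf and Psmg genes, Psmd8, Psmd14, Psmb11 and the target; Psmc1, Psma8 and the genes in position and overlap statements were added after values were seen. The members and lists were chosen with earlier results of these data known. Library depth is given with the results; p-values cover only the spread between mice. Positions are from GENCODE M21 and start-site windows from RefSeq (GRCm38.p6).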

Additional observations from a re-analysis of the deposited data

How the results depend on the processing

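The number of members that rose was 2 in the fit reported and with DESeq2 and its size factors, 0 with library totals, 34 with spike-in library sizes (where 18.6% of all genes rose), 5 without the filter (Psma4, Psmb4, Psmc1, Psmd2 and Psmf1, where 3.16% rose), 1 with the replicate number as a block (Psmb4) and 0 with a log2 fold change limit of 1 added. Leaving out 1 library gave 0 to 4: 0 without scramble replicate 1 or 3 or knockdown replicate 1 or 2, 1 without scramble replicate 2 (Psmb4) and 4 without knockdown replicate 3 (Psmb4, Psmc1, Psmd2 and Psmf1). No member fell under any of these settings. For library totals, the block and the fits without 1 library the share of all genes called is not given, so those counts cannot be set against it. With library totals the median log2 fold change was 0.15 for all members, 0.15 for the core, 0.16 for the cap, 0.073 for the activators and 0.044 for assembly. With spike-in library sizes it was 0.42, 0.42, 0.43, 0.34 and 0.32 (0.315 before rounding). Leaving out 1 library moved the median of all members within 0.18 to 0.25, that of the activators within 0.10 to 0.17 and that of assembly within 0.052 to 0.16. The 3 inducible to constitutive ratios kept their direction under all their alternatives. Psmb6 (0.15), Psmd11 (0.026) and Psmg3 (0.198) lay above 0 with the spike-ins but under the median of all genes at that scaling (0.201). Psmg1 lay below 0 with library totals (-0.043), where the median of all genes was -0.072. Leaving out 1 library gave -0.033 (without scramble replicate 2 or knockdown replicate 3) to 0.11 for Psmg1. Psmg3 ran from -0.092 to 0.085 when 1 library was left out, above 0 without scramble replicate 1 or 3 or knockdown replicate 2. The replicate numbers are only names: same-numbered deviations from the group means correlated at -0.0226, 0.0231 and 0.00321. The block removed the call of Psma4 (adjusted p = 0.0747 by edgeR) and changed no other call among members. The spike-in sizes move all genes together (median 0.20), and the cause of the spike-in shift was not tested. With 3 mice a group and a median SE of 0.10, single fold changes of the size seen here lie near the limit of what the test can call.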
